A study of Mus musculus with 12 samples.

Results

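The Egr family of transcription factors has 4 genes in the mouse, Egr1, Egr2, Egr3 and Egr4, and all 4 were taken by symbol from the 52636 genes of the hippocampal expression tables. The family was chosen with earlier results of these data known, so shares over all genes beside its counts are a description only. The hippocampi came from 12 mice, each 18 weeks old, of the strain C57BL6/J and wild-type in genotype, and each mouse gave 1 library of polyadenylated RNA. The mice formed 4 groups of 3, which were low-extinction males, high-extinction males, low-extinction females and high-extinction females. Fear extinction is the loss of conditioned fear through repeated safe exposure to what was feared, and within each sex the study set animals that extinguished weakly against animals that extinguished strongly. The labels give no genotype or drug that differed between the groups, and the time from behavioural testing to dissection was not given in the sources used here. Levels are the deposited TPM (corrected for transcript length, with an equal total for every library), and changes are low minus high extinction.

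Egr genes are immediate early genes: synaptic activity and growth factors switch them on within minutes through the ERK kinases, the serum response factor SRF with its ETS partners, and CREB. Their products share a DNA-binding domain of zinc fingers that reads a GC-rich site. The corepressors NAB1 and NAB2 restrain the products of Egr1, Egr2 and Egr3. Egr1, also called Zif268 or Krox24, is widely used as a marker of recently active neurons and is needed for lasting hippocampal memory. Egr2, also called Krox20, is best known for hindbrain patterning and myelination by Schwann cells, Egr3 acts in memory and in the muscle spindle, and Egr4 regulates neuronal genes such as the chloride transporter gene Slc12a5.

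In GENCODE M21 on GRCm38, Egr2 lies on chromosome 10 from 67535475 to 67542188 on the plus strand. Egr3 lies on chromosome 14 from 70077203 to 70082614 on the plus strand. Egr4 lies on chromosome 6 from 85511121 to 85513589 on the minus strand. No annotated gene overlapped any of the 4. Of the members whose low and high groups did not overlap in TPM, Egr1 and Egr2 in males and Egr4 in females, the 250 bases before the start sites of Egr2 and Egr4 are shown. They are from RefSeq promoters on GRCm38.p6, at chr10:67537619-67537868 (plus strand) for Egr2 and chr6:85513590-85513839 (minus strand) for Egr4, in the direction of transcription. Capitals mark matches to 4 motifs, searched on both strands: the CRE half-site TGACG bound by CREB, the CArG box bound by SRF, the EGR site GCGNGGGCG and the ETS site CCGGAA.
Egr2: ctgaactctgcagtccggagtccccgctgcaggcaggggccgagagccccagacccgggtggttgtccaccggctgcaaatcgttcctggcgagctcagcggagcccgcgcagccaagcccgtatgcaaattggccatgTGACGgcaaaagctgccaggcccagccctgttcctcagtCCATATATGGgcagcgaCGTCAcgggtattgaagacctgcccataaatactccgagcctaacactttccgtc
Egr4: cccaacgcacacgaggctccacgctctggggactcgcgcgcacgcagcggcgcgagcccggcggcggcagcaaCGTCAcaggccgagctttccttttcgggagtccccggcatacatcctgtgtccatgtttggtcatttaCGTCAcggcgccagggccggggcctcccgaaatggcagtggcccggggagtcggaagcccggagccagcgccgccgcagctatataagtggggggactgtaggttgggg
Each window held 2 CRE half-sites, at 111 and 55 bases before the start in Egr2 and at 177 and 109 bases in Egr4. Of 32851 RefSeq promoter windows of this length, 3.9% held 2 or more. The Egr2 window also held a CArG box, 72 bases before the start and palindromic, which 1.47% of windows held. No EGR or ETS site with these letters was found in either window, against 4.7% and 12.0% of all windows. No motif overlapped another, and a match is a description of the letters only.

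Egr1, the member on chromosome 18, was the most abundant. The 4 genes kept the same order of TPM in 12 of 12 libraries, with Egr1 highest, then Egr3, Egr4 and Egr2. Egr1 spanned 57.2 to 127.63 TPM over the 12 libraries, Egr3 50.3 to 70.7, Egr4 18.9 to 42.3 and Egr2 1.43 to 8.83 TPM. The ratio of Egr1 to Egr3 within a library was 1.03 to 1.14 in low-extinction males and 1.10 to 1.85 in high-extinction males. In females the ratio of Egr1 to Egr3 was 1.52 to 1.70 at low and 1.41 to 1.89 at high extinction. The ratio of Egr3 to Egr4 was 2.12 to 2.905 in low-extinction and 1.77 to 2.45 in high-extinction males, and 1.89 to 2.63 in low-extinction and 1.61 to 1.898 in high-extinction females, so either pair could be the closer one within a library. The ranges of Egr1 and Egr3 overlapped over the 12 libraries, while the ranges of Egr3, Egr4 and Egr2 did not. Egr3 varied least, with its highest library 1.40 times its lowest, and Egr2 most, at 6.17 times.

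**Figure D1:**
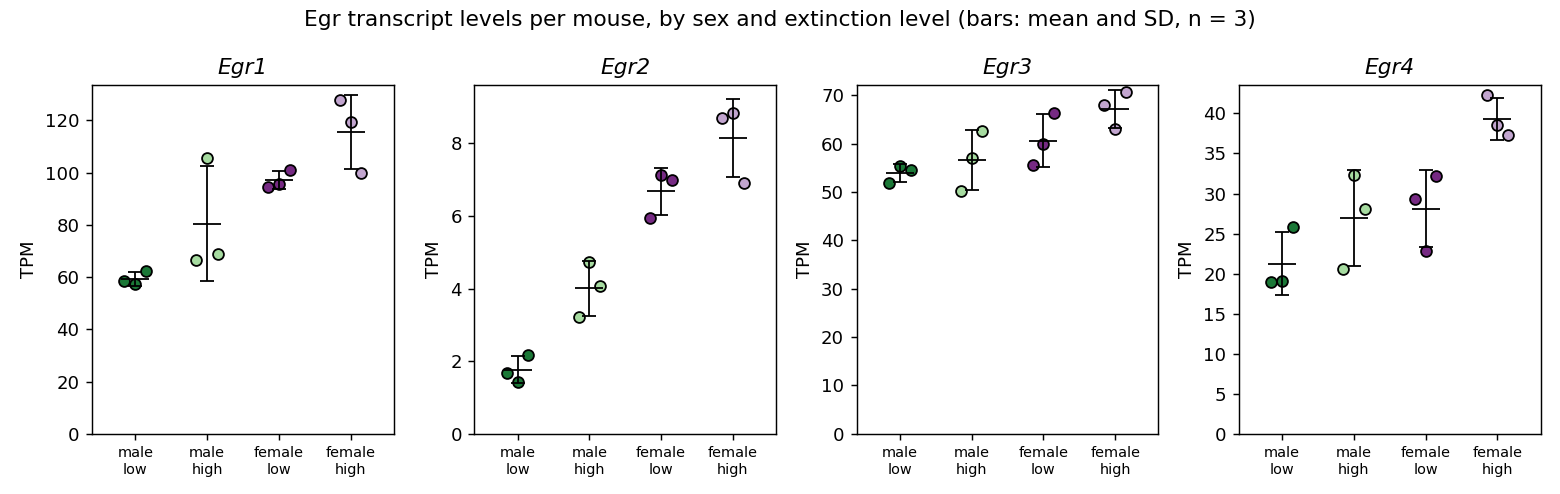
TPM of each Egr gene (vertical axes from 0) in each mouse, by sex and extinction level, with the mean and SD of each group of 3. Egr2 separates low from high extinction in males, at 1.43 to 2.17 against 3.23 to 4.72 TPM, and Egr4 does so in females, at 22.8 to 32.2 against 37.3 to 42.3 TPM.

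In males, Egr2 was lower at low extinction. It was at 1.69, 1.43 and 2.17 TPM in low-extinction males, against 3.23, 4.72 and 4.08 TPM in high-extinction males. Every low-extinction male was below every high-extinction male, as for 7.28% of all genes tested. In the authors' deposited table Egr2 was 2.07-fold lower (log2 change -1.05, SE 0.22, DESeq2 adjusted p = 0.00199) and ranked 19 of 20050 genes by p. Its change on log2(TPM + 1) was -0.86 (SE 0.17, limma adjusted p = 0.571; two-sided exact permutation p = 0.1, the smallest that 3 mice against 3 allow). Because 1 was added to such low TPM, the second value understates the change.

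Egr1 was at 58.3, 57.2 and 62.4 TPM in low-extinction males, against 66.5, 105.68 and 68.7 TPM in high-extinction males. The groups did not overlap, with every low-extinction male below every high-extinction male, as for 7.28% of all genes tested. Replicate 2 of the high-extinction males was far above the other 5 males. The authors' deposited table gave Egr1 a log2 change of -0.41 (SE 0.21, DESeq2 adjusted p = 0.668), which did not pass. The change of Egr1 on log2(TPM + 1) was -0.40 with all males and -0.19 without that replicate (limma adjusted p = 0.798 with all males). In the same library Fos was at 24.8 and Arc at 158.22 TPM, against at most 13.5 and 83.8 TPM in the other 5 males, and the sum of 9 oligodendrocyte markers was likewise the highest of the males.

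Egr4 was at 18.9, 19.1 and 25.8 TPM in low-extinction males, against 20.5, 32.3 and 28.0 TPM in high-extinction males. The groups overlapped. The authors' deposited table gave Egr4 a log2 change of -0.31 (SE 0.14, DESeq2 adjusted p = 0.481). Egr3 was at 51.9, 55.4 and 54.6 TPM in low-extinction males, against 50.3, 57.1 and 62.7 TPM in high-extinction males, with the low values inside the range of the high ones. Its log2 change in the authors' deposited table was -0.04 (SE 0.06), with a 95% interval of -0.16 to 0.08 (DESeq2 adjusted p = 0.999).

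Of the family, 1 of 4 genes was thus called in males by the authors, who called 0.504% of all genes with an adjusted p in males, 0.389% as lower. With limma 0 of 4 were called in males, against 0.0% of 18303 genes. At an unadjusted p under 0.05 limma gave 1 of 4, against 6.29% of all genes, and 3.93% as lower.

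**Figure D2:**
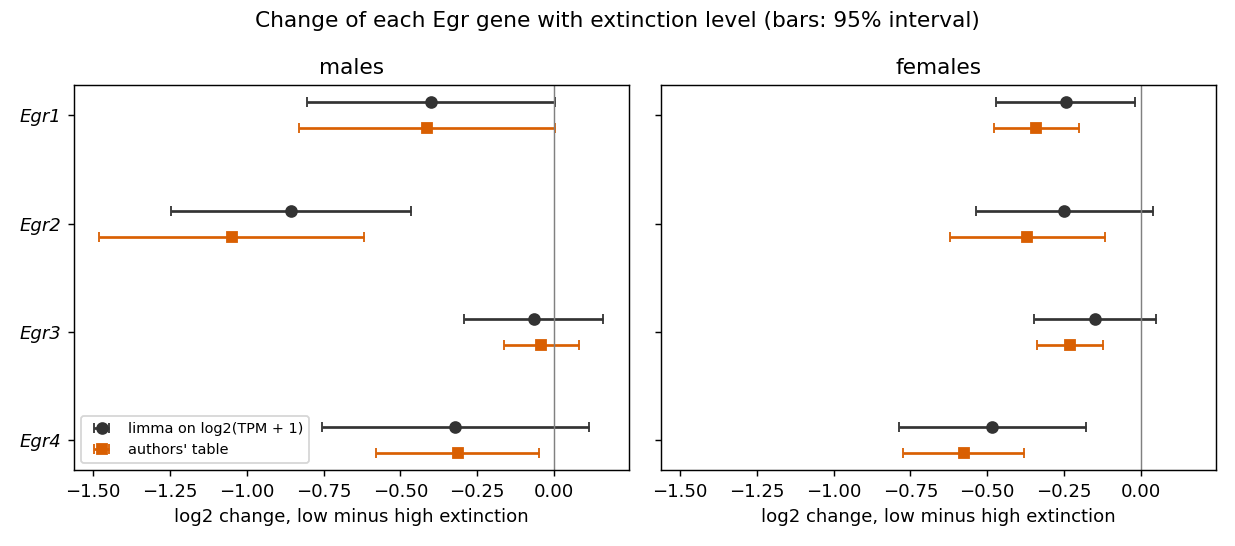
Log2 change (horizontal axis, low minus high extinction) of each Egr gene in males and in females, from limma on log2(TPM + 1) (circles) and from the authors' table (squares), with 95% intervals. All 8 points from each source lie below 0, between -1.05 and -0.04 in the authors' table.

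Low-extinction females had less Egr4, Egr1 and Egr3 mRNA, by the deposited table of the authors. Egr4 was at 29.4, 22.8 and 32.2 TPM in low-extinction females, against 42.3, 38.5 and 37.3 TPM in high-extinction females. Every low-extinction female was below every high-extinction female, as for 1.98% of all genes tested. In the authors' deposited table Egr4 was 1.49-fold lower (log2 change -0.58, SE 0.10, DESeq2 adjusted p = 2.03e-05) and ranked 8 of 15644 genes by p. Its change on log2(TPM + 1) was -0.48 (SE 0.13, limma adjusted p = 0.479; two-sided exact permutation p = 0.1).

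Egr1 was at 94.4, 95.6 and 100.96 TPM in low-extinction females, against 127.63, 119.3 and 99.8 TPM in high-extinction females. The groups overlapped through replicate 3 of each. The authors' deposited table gave Egr1 a log2 change of -0.34 (SE 0.07, DESeq2 adjusted p = 0.00084), or 1.27-fold lower. Egr3 was at 55.6, 59.97 and 66.4 TPM in low-extinction females, against 68.0, 63.0 and 70.7 TPM in high-extinction females. Here too the groups overlapped, and the authors' deposited table gave a log2 change of -0.23 (SE 0.05, DESeq2 adjusted p = 0.00763), or 1.17-fold lower.

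Egr2, the member called in males, was at 5.94, 7.12 and 6.98 TPM in low-extinction females, against 8.71, 8.83 and 6.92 TPM in high-extinction females. Replicate 3 of the high-extinction females was within the low range. Its log2 change in the authors' deposited table was -0.37 (SE 0.13, DESeq2 adjusted p = 0.200), which did not pass. Over the family, the authors called 3 of 4 genes lower in females, where they called 0.857% of all genes with an adjusted p, 0.288% as lower. With limma 0 of 4 were called in females, against 0.0107% of 18668 genes. At an unadjusted p under 0.05 limma gave 2 of 4, Egr1 and Egr4, against 8.83% of all genes, and 0.954% as lower. That count depended on the scaling of the libraries, as given in the last section.

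Across both sexes, each of the 4 Egr genes had a lower mean log2(TPM + 1) at low extinction in males and in females, as did 17.8% of 18499 genes. The change averaged over the sexes was -0.55 for Egr2 (SE 0.10), -0.40 for Egr4 (SE 0.12), -0.32 for Egr1 (SE 0.11) and -0.11 for Egr3 (SE 0.06). Labels were permuted exactly within sex, which gave 400 assignments and a smallest possible two-sided p of 0.005. The two-sided exact permutation p was 0.01 for Egr1, 0.015 for Egr2, 0.02 for Egr4 and 0.135 for Egr3, unadjusted. So 3 of 4 were under 0.05 and lower at low extinction, against 6.75% of all genes under 0.05 and 1.48% under 0.05 and lower. Because the 4 genes were chosen with earlier results known, these shares do not test the family. The p of Egr4 was above 0.05 when certain single males were left out: it was 0.06 without replicate 2 and 0.055 without replicate 3 of high extinction, and 0.055 without replicate 1 or without replicate 2 of low extinction. Leaving out replicate 1 of male high extinction gave Egr3 a p of 0.025. Adjusted over all genes, limma called 0 of 4 on average and 0.0% of all genes (adjusted p from 0.271 for Egr2 to 0.769 for Egr3). At an unadjusted p under 0.05 limma gave 3 of 4, against 7.7% of all genes, and 1.91% as lower. When the authors' deposited fold changes of both sexes were averaged with their errors, Egr2 was 1.63-fold lower (adjusted p = 2.81e-05) and Egr4 1.36-fold lower (adjusted p = 0.000114). Egr1 (adjusted p = 0.0675) and Egr3 (adjusted p = 0.0816) did not pass there, and 1.05% of 15642 genes were called, 0.479% as lower.

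None of the 4 Egr genes passed when the changes of males and females were set against each other. For Egr2 the male change minus the female change was -0.61 on log2(TPM + 1), with a 95% interval of -1.06 to -0.15 (limma adjusted p = 0.547). The same difference between the authors' deposited fold changes was -0.68 (SE 0.26, adjusted p = 0.395), with 0 of 4 Egr genes and 0.409% of all genes called. For Egr1, Egr3 and Egr4 the 95% intervals on log2(TPM + 1) were -0.63 to 0.32, -0.20 to 0.37 and -0.38 to 0.71. For this difference limma called 0 of 4 Egr genes and 0.00541% of all genes. At an unadjusted p under 0.05 it gave 1 of 4, Egr2, against 7.92% of all genes, and 7.02% with a lower change in males.

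**Figure D3:**
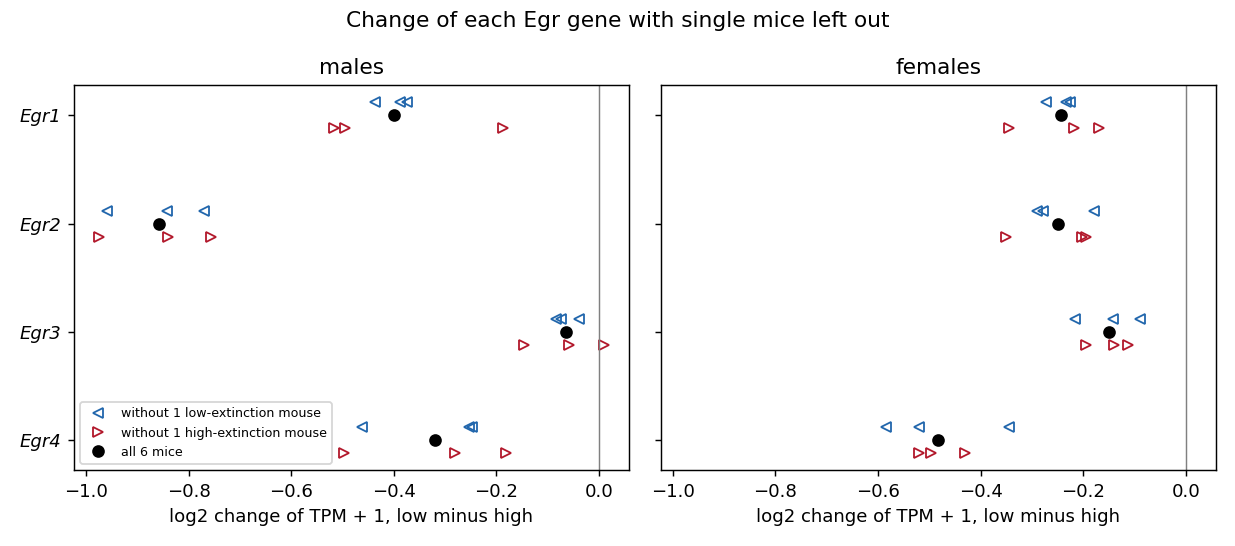
Log2 change of TPM + 1 (horizontal axis, low minus high extinction) of each Egr gene with all 6 mice of a sex (filled circles) and with single mice left out (open triangles, pointing left for a low-extinction and right for a high-extinction mouse). In males Egr2 stays between -0.97 and -0.76, Egr1 moves to -0.19 and Egr4 to -0.18 without replicate 2 of high extinction, and Egr3 moves to 0.0086 without replicate 3 of high extinction.

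The makeup of the family was measured within each library, where scaling cancels. In males, Egr2 made up 1.08 to 1.495% of the summed Egr TPM at low extinction and 2.29 to 2.497% at high extinction, with no overlap. TPM of Egr4 was 11.2 to 13.3 times that of Egr2 in low-extinction males and 6.36 to 6.86 times in high-extinction males. In females the Egr2 share was 3.21 to 3.84% at low and 3.22 to 3.84% at high extinction, so the ranges coincided. Egr4 made up 12.3 to 15.8% at low and 16.8 to 17.4% at high extinction in females, with no overlap, and 14.3 to 17.8% at low and 14.6 to 17.1% at high extinction in males, where the groups overlapped. Shares sum to a fixed total, so a lower share of one gene raises those of the others. The summed Egr TPM ran from 130.8 to 144.89 in low-extinction and from 140.62 to 199.77 in high-extinction males, and from 185.3 to 206.51 in low-extinction and from 214.69 to 246.64 in high-extinction females.

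**Figure D4:**
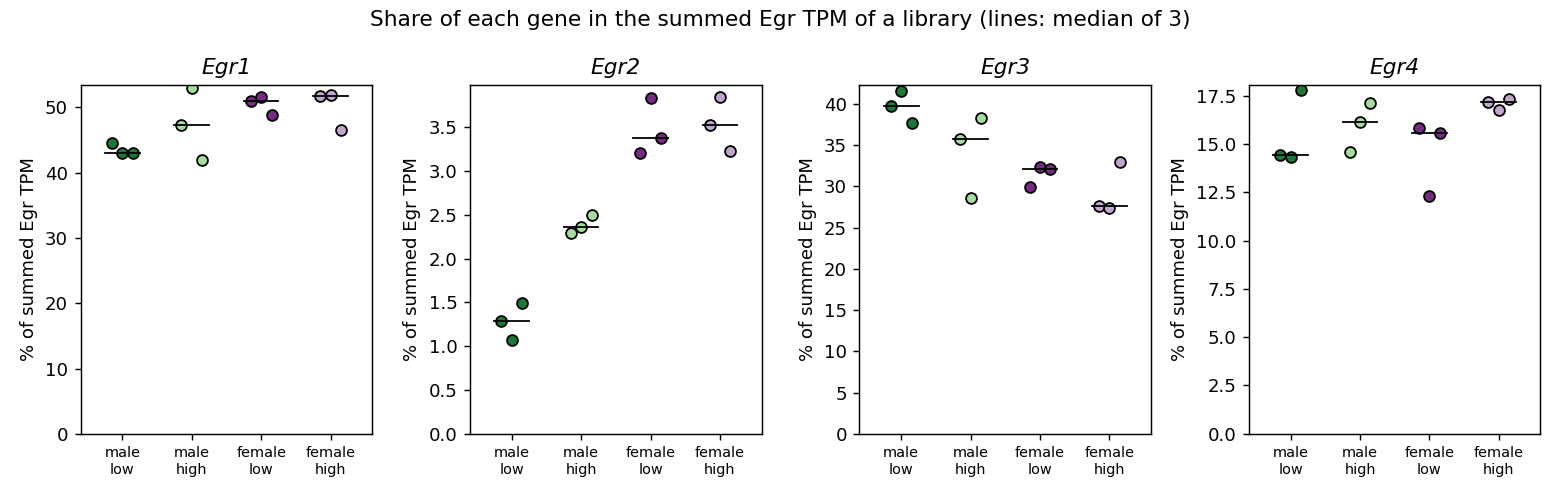
Share of each Egr gene in the summed Egr TPM of a library, in percent from 0 (vertical axes), for each mouse by sex and extinction level, with lines at the median of 3. The Egr2 share of low-extinction males, 1.08 to 1.495%, lies below that of high-extinction males, 2.29 to 2.497%, while the shares of females coincide.

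The sexes were processed as separate tables, so sex and table cannot be told apart, and their levels are set side by side without a test. Egr2 was at 5.94 to 8.83 TPM in the 6 females and 1.43 to 4.72 TPM in the 6 males, a ratio of means of 2.57 with every female above every male. The ratio of means was 1.52 for Egr1, 1.40 for Egr4 and 1.16 for Egr3, each with overlapping ranges. The share of all genes with every female above every male was not computed. Fos was likewise at 30.7 to 43.8 TPM in females and 7.98 to 24.8 TPM in males. Arc and Npas4, also activity-induced, overlapped between the sexes. Arc reached 158.22 TPM in males and fell to 130.77 TPM in females, and Npas4 reached 13.7 TPM in males and fell to 11.5 TPM in females. The authors' mean normalized count, which shows the depth behind each gene, was 461 for Egr2 in females and 175.01 in males, and above 1100 for the other members in both sexes.

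Of the pairs of members, Egr1 and Egr2 in males passed a test of correlation between mice. The 6 males ranked in the same order by Egr1 and by Egr2 (Pearson r = 0.828, exact permutation p = 0.00139, adjusted p = 0.0167; Spearman rho = 1.00, exact permutation p = 0.00278, adjusted p = 0.0333). This r was 0.986 without the 2 males farthest from the median of Egr1. Of 12 relations computed, 6 pairs of genes in each sex, none of the other 11 passed after Benjamini-Hochberg adjustment, with r from 0.320 for Egr1 and Egr3 in males to 0.920 for Egr1 and Egr2 in females (exact permutation p = 0.0194, adjusted p = 0.0778). Without the 2 females farthest from the median, r was 0.588 for Egr1 and Egr2 and -0.078 for Egr2 and Egr4, which with all 6 had r = 0.600. All of these pool low- and high-extinction mice, so they include the group difference. Over the 12 libraries, centred within sex, the genes most like each member among 18045 were Unc5b (r = 0.939), Sox10 (0.929) and Mtcl1 (0.926) for Egr1, and Ptpn12 (0.967), 2410131K14Rik (0.957) and Fam46a (0.949) for Egr2. For Egr3 they were Zfand3 (0.912), Gm3222 (0.903) and Mrps36-ps1 (0.893), and for Egr4 Gal3st1 (0.926), Bcor (0.926) and Rtn4r (0.919). These are the highest of many values and carry no test. By the same measure Egr2 ranked 57 for Egr1 (r = 0.836, and 0.747 when centred within group). Egr4 ranked 169 (0.774, and 0.643 when centred within group), while Egr3 ranked 4060 (0.346, and 0.068 when centred within group). Of these genes, Sox10, a transcription factor, and Gal3st1, an enzyme of myelin lipid synthesis, are expressed in oligodendrocytes. The summed TPM of oligodendrocyte markers was 4220 in replicate 2 of the high-extinction males, against 2383 to 3280 TPM in the other 5 males. In females that sum was highest in replicate 2 of low extinction, at 3738 TPM, against 2864 to 3201 TPM in the others. That female had the lowest Egr4 of the females, at 22.8 TPM.

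Of the corepressors, Nab2, itself induced by Egr proteins, was at 26.8, 26.6 and 31.5 TPM in low-extinction males, against 33.8, 34.1 and 37.1 TPM in high-extinction males. Here every low-extinction male was below every high-extinction male, as for 7.28% of all genes tested. Nab2 was at 31.9, 30.7 and 33.6 TPM in low-extinction females, against 39.1, 36.2 and 31.9 TPM in high-extinction females, and these groups overlapped. The authors' deposited tables gave Nab2 log2 changes of -0.25 in males (SE 0.09, DESeq2 adjusted p = 0.247) and -0.29 in females (SE 0.09, DESeq2 adjusted p = 0.0951), which did not pass. Nab1 had log2 changes of -0.05 in males and 0.05 in females in the authors' deposited tables (SE 0.08 and 0.07). Wt1, whose zinc fingers resemble those of the Egr proteins, was at 0.130 TPM or less in every library and was not tested.

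Among 22 genes of the route that induces Egr transcription, the authors' deposited tables called 0 in males and 0 in females. Of all genes, 0.504% and 0.857% were called there. At an unadjusted p under 0.05 the authors' tables gave 2 in males and 3 in females of the 22. The share of all genes at that level was not computed for the authors' tables. With limma 0 were called in each sex, and 0 had an unadjusted p under 0.05, against 6.29% and 8.83% of all genes. Their median log2 change in the authors' deposited tables was -0.02 in males and -0.06 in females, beside medians of -0.01 and -0.01 over all genes. With limma it was -0.05 in males and 0.01 in females, beside -0.02 and 0.06 over all genes. In females the sign differed between the sources, while the list median lay below that of all genes in both. The lowest p belonged to Elk1 in males (log2 change 0.17, DESeq2 adjusted p = 0.503) and to Srf in females (-0.19, DESeq2 adjusted p = 0.248) by the authors' deposited tables. Elk1 encodes an ETS partner of SRF. Next came Creb1 in males, at -0.13 (authors' deposited table, DESeq2 adjusted p = 0.646), and in females Crtc1, a CREB coactivator, at -0.19 and Map2k1, the kinase MEK1, at -0.12 (authors' deposited table, DESeq2 adjusted p = 0.319 and 0.419).

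Of 22 genes reported as Egr targets, the authors' deposited tables called 0 of 21 tested in males and 1 of 20 in females, against 0.504% and 0.857% of all genes. The gene called was Arc, a postsynaptic protein needed for memory storage, which was 1.28-fold lower at low extinction in females (authors' deposited table, DESeq2 adjusted p = 0.00387). In males Arc was at 66.0, 56.1 and 59.7 TPM at low extinction, against 83.8, 158.22 and 57.0 TPM at high extinction, and did not pass (authors' deposited table, DESeq2 adjusted p = 0.825). Fn1, the fibronectin gene, lay the other way, with log2 changes of 0.25 in males and 0.24 in females that did not pass (authors' deposited tables, DESeq2 adjusted p = 0.556 and 0.166). Slc12a5, the reported target of Egr4, had log2 changes of 0.03 in males and -0.09 in females (SE 0.06 and 0.07) in the authors' deposited tables. The median log2 change over the target list was -0.05 in males and -0.06 in females in the authors' deposited tables, beside -0.01 and -0.01 over all genes. With limma it was -0.12 in males and 0.02 in females, beside -0.02 and 0.06 over all genes. In females the sign was opposite to the authors', while the list median lay below that of all genes in both sources. Of 20 targets tested with limma 0 were called in each sex. At an unadjusted p under 0.05 limma gave 2 in males and 0 in females, against 6.29% and 8.83% of all genes. The authors' deposited tables gave 3 of 21 in males and 7 of 20 in females at that level, in either direction. Other lists varied there in females, with 5 of 12 neuron markers and 5 of 11 heat shock genes at that level. Microglia markers gave 1 of 10 and dentate gyrus markers 0 of 6. The share of all genes at that level was not computed for the authors' tables.

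Among 46 other activity-induced genes, the authors' deposited tables called 2 lower at low extinction in males and 7 in females, against 0.389% and 0.288% of all genes, and 0 higher. For males the authors' deposited table had Klf10, a zinc finger repressor, 1.35-fold lower (DESeq2 adjusted p = 0.0181) and Junb, an AP-1 subunit, 1.31-fold lower (DESeq2 adjusted p = 0.0309). In females they were Fosl2, Nr4a3, Junb, Fosb, Arc, Fos and Dusp6, from 1.22-fold lower for Dusp6, a phosphatase of ERK, to 1.35-fold lower for Fosb in the authors' deposited table. The median log2 change of the 46 was, by the authors' deposited tables, -0.19 in males and -0.20 in females, and with limma it was -0.17 and -0.10. With limma 0 of 46 were called in each sex, with 8 in males and 6 in females at an unadjusted p under 0.05, against 6.29% and 8.83% of all genes. These genes were listed with results of these data known, and some are also among the targets above.

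**Figure D5:**
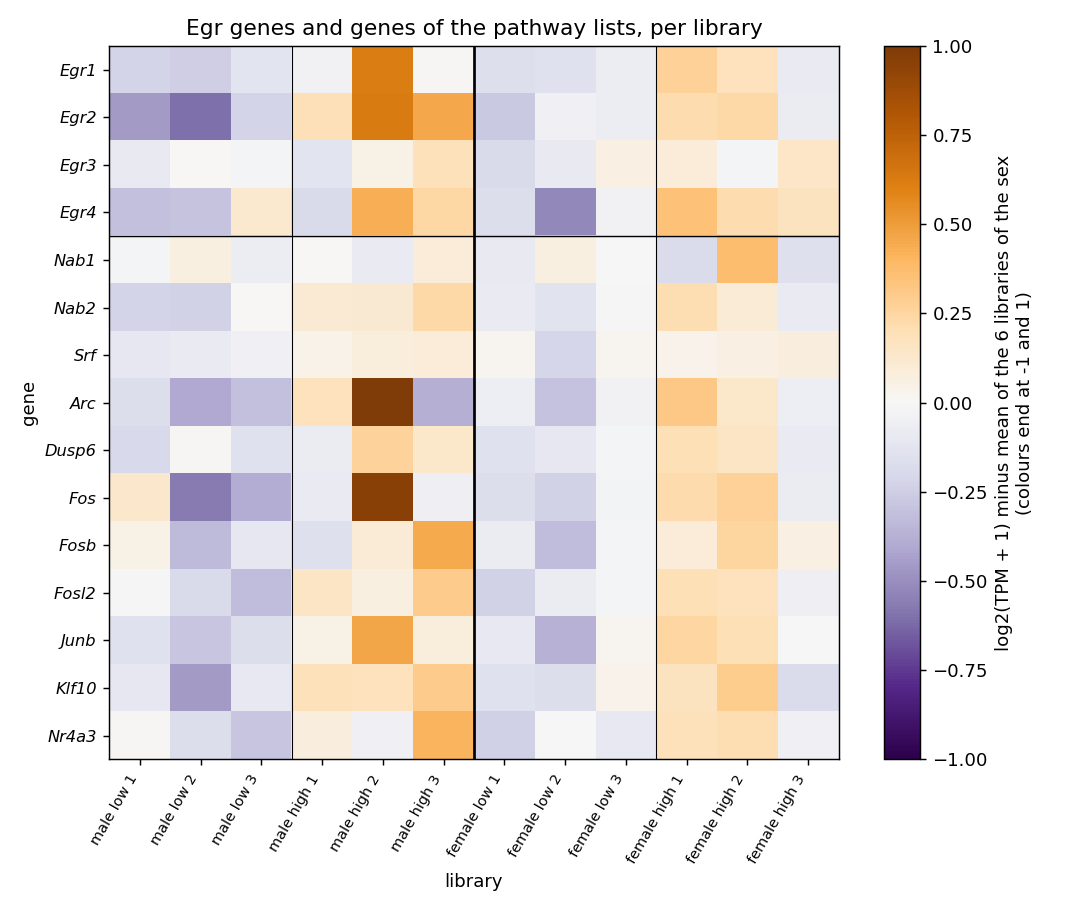
Log2(TPM + 1) minus the mean of the 6 libraries of a sex (colour, ending at -1 and 1) for the Egr genes, Nab1, Nab2, Srf and the pathway genes called in an authors' table (rows) in each of the 12 libraries (columns). Replicate 2 of the high-extinction males is the highest male for Egr1, Egr2, Egr4, Arc and Fos, and replicate 3 of that group is the highest male for Egr3 and Fosb.

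The tissues are bulk samples, so fewer cells of a type and less RNA per cell cannot be told apart. All 12 neuron markers were found, and their summed TPM was 6866 to 7514 in low-extinction and 6726 to 8347 in high-extinction males, and 7157 to 7823 in low-extinction and 7508 to 7813 in high-extinction females, with overlap in both sexes. In males, the sum of 8 ependymal markers was 19.0 to 40.4 TPM at low and 54.5 to 63.0 TPM at high extinction, without overlap, as for Egr1 and Egr2. The sum of 10 meningeal fibroblast markers in males was 56.8 to 104.01 TPM at low and 122.91 to 158.96 TPM at high extinction. In females the same meningeal sum went the other way, at 133.38 to 167.59 TPM at low and 98.98 to 113.15 TPM at high extinction, as did 9 thalamus and habenula markers, at 142.3 to 157.54 TPM and 98.0 to 126.18 TPM, and 10 endothelial markers, at 186.42 to 189.54 TPM and 162.71 to 186.09 TPM. The part of these cell types in the Egr values was not tested. Sums of choroid plexus markers were uneven between mice, at 59.9 to 989.03 TPM in low-extinction and 337.8 to 3523 TPM in high-extinction males, and overlapped in both sexes. By the authors' deposited table all 9 oligodendrocyte markers had changes below 0 in males (median -0.13, 0 called), beside a median of -0.01 over all genes. Of the dentate gyrus and CA1 markers, 0 of 6 and 0 of 5 were below 0 there (medians 0.18 and 0.18, 0 called). The sums of each of these lists overlapped in both sexes, and their part in the Egr values was not tested. The summed TPM of 11 heat shock genes overlapped between low and high extinction in each sex. Transcripts derived from ribosomal RNA took 5.96 to 20.4% of all TPM, the highest share being in replicate 1 of the high-extinction males, the lowest of its group for Egr1, Egr2, Egr3 and Egr4. Low-extinction females listed 18878 to 19062 genes at 1 TPM or more, against 18297 to 18597 in high-extinction females, without overlap, and the 6 males listed 18170 to 18442. The part of the number of genes listed in the Egr values of females was not tested. No library was identical to another.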

How the data were processed

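Per the labels' protocols, polyadenylated RNA was enriched from 1 µg of total RNA for each of 12 hippocampi. Names listed without roles in the submitters' processing notes are the builds GRCm38.p5 and mm10 and the tools DESeq2, StringTie 1.3.3b, HTSeq, Bowtie2 and TopHat2. For each sex the authors deposited TPM values and a table of their DESeq2 test, which per the file headers holds the mean normalized count (a signal), log2 fold change, its standard error, a score (their ratio), p-value and adjusted p-value. The direction of the deposited log2 fold change is not named. Across genes its correlation with the TPM change, low minus high, was -0.578 for males and -0.463 for females, so it was multiplied by -1 here. Strandedness was not given in the sources used here, and depth per library is unknown.

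The test was limma 3.58.1 (R 4.3.3) on log2(TPM + 1), for genes averaging 1 TPM or more, using the trend of variance on mean, and p was adjusted by Benjamini-Hochberg over all genes, called at 0.05. The fit used 6 libraries within a sex and 12 for the average and for the difference between sexes, and was tested on simulated data. Exact permutations, correlations and figures used Python 3.11.15, scipy 1.17.1 and matplotlib 3.10.9. The 4 Egr genes and the 18 gene lists were chosen with earlier results of these data known. Named genes were the members, list genes called in an authors' table or otherwise among the lowest p, and the 3 genes most correlated with each member. Slc12a5 was named for its role, and Fos, Arc and Npas4 per library after their values were seen. Of 4 Egr identifiers, 4 matched GENCODE M21 with the same version. RefSeq promoters were matched for Egr2 and Egr4 and printed from the start site of their first GENCODE transcript. Alternatives were other pseudocounts, filters, scalings and variance models, a joint fit, the authors' tables and leaving out each replicate, and, added after the data were seen, TPM without ribosomal RNA-derived genes and the authors' fold changes combined over the sexes with a normal p.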

Additional observations from a re-analysis of the deposited data

How the results depend on the processing

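With limma, 0 of 4 Egr genes passed in each sex, averaged over the sexes or for the difference between them, and 0 passed at every other pseudocount, filter, scaling and variance model, in the joint fit, without ribosomal RNA-derived genes and without any single mouse, except that a filter at a mean of 5 TPM left 3 members tested in males, without Egr2. The authors' deposited tables gave 1 in males and 3 in females, and the mean of the authors' fold changes over both sexes gave 2. The cause of this difference was not tested. Unadjusted limma p moved with the settings. In females Egr2 and Egr3 had p of 0.080 and 0.118 in the main fit. These were 0.029 and 0.028 with median scaling, and 0.021 and 0.029 with quantile normalization. Without ribosomal RNA-derived genes they were 0.047 and 0.036. Averaged over the sexes, Egr3 went from 0.124 to 0.037, 0.017 and 0.014 in that order. Egr1 in females rose from 0.039 to 0.137 in the joint fit and 0.060 without a trend. Of 295 recomputed changes of single members, 3 turned direction, each in a leave-one-out: Egr3 in males was 0.0086 without replicate 3 of high extinction, also in the exact permutation, and for the difference between sexes Egr1 ran from -0.27 to 0.057 (0.057 lacking replicate 2 of male high extinction) and Egr4 from -0.0145 (lacking replicate 1 there) to 0.30. With single mice left out, the exact permutation on average gave 2 to 4 members under 0.05, and the average changes ran from -0.38 to -0.22 for Egr1, -0.61 to -0.50 for Egr2, -0.15 to -0.070 for Egr3 and -0.49 to -0.33 for Egr4. At a pseudocount of 0.1 the change of Egr2 in males was -1.14. Over all genes, limma called 2 to 6 in males and 4 to 10 in females without single mice, against 0 and 2 with all, and the authors' tables called 101 and 134. No paired analysis was possible, because the labels match no low-extinction mouse to a high-extinction mouse. The replicate numbers used here follow the order of the samples within each group. With 3 mice against 3, a two-sided exact p cannot go below 0.1 within a sex, depth per library is unknown, and the authors' tests could not be refitted without single mice.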
